A study of Mus musculus with 9 samples.

Results

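Mouse embryonic stem (ES) cells that carry 1 disrupted Dgcr8 allele were compared with wild-type ES cells on 3 two-colour microRNA arrays. Described here are the 93 probes that matched a mouse microRNA by name and had a value on at least 2 of the 3 arrays. The rest of the array comprised 33 mouse probes with a value on 1 array, 69 with none, and 11 probes whose name matched no mouse gene. Of the 93, 67 had a value on all 3 arrays and 26 on 2 arrays. Heterozygous and wild-type cells were both of the V6.5 ES line, were grown on feeder fibroblasts and were taken off the feeders before RNA was extracted. Wild-type RNA was the other channel of every array, so each value is already a ratio. Heterozygous RNA came from 2 preparations, and which of the 3 arrays share one is not given in the sources used here. It lay in channel 2 on arrays 1 and 3 and in channel 1 on array 2, a dye swap. Also used below, as comparison, are 2 ES lines homozygous for the Dgcr8 knockout (2 arrays each) and irradiated mouse embryonic fibroblast feeder cells (2 arrays), both against the same wild-type ES cell reference. Dgcr8 transcript is not measured by these probes, so the arrays do not check the genotype.

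Most microRNAs are cut from long primary transcripts in the nucleus by the Microprocessor, in which the RNA-binding protein DGCR8 holds the hairpin and the nuclease Drosha cuts it. The released hairpin is cut again by Dicer, and 1 strand, the mature microRNA, guides Argonaute to messenger RNAs through its seed, bases 2 to 8. In mouse ES cells the mir-290 cluster supplies a large part of the mature microRNAs, and its members promote the rapid cell cycle of these cells. The arrays of heterozygous cells ask how far the mature microRNAs follow the number of Dgcr8 copies.

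The sequences on which the results turn are those of the mir-290 cluster, of the microRNAs of the imprinted Dlk1-Gtl2 region with low ratios, and of the let-7 family with the other microRNAs of high ratio. They are the mature sequences of RefSeq (GRCm38.p6), with the seed in capitals. RefSeq gave a sequence for 72 of the 93 microRNAs, matched by name, with the arm taken as the one the older name stands for. The array's own probe sequences were not used here. The final digit of a name such as let-7a-1 is the array's and marks a gene copy.

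The mir-290 cluster lies on chromosome 7. Both arms of the mir-291 hairpin are shown, and miR-291-3p, miR-294 and miR-295 share 1 seed. MiR-291-3p and miR-294 are equal at 19 of 22 positions, so cross-hybridisation between their probes is possible and was not tested.
miR-290: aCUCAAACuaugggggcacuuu
miR-291-5p: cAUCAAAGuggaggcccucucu
miR-291-3p: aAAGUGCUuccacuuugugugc
miR-292-5p: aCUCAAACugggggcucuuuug
miR-293: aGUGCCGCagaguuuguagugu
miR-294: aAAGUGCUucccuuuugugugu
miR-295: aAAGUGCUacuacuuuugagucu

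The Dlk1-Gtl2 region lies on chromosome 12. The 5 shown were among the 7 of the region with the lowest ratios. MiR-300 and miR-381 are equal at 19 of 22 positions, so cross-hybridisation between their probes is possible and was not tested.
miR-341: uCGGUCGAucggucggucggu
miR-381: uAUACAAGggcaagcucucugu
miR-300: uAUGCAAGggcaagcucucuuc
miR-134: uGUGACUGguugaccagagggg
miR-329: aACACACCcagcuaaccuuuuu

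The let-7 microRNAs share 1 seed, and let-7e is equal to let-7a at 21 of 22 positions. MiR-302c and miR-138 are shown for their high ratios.
let-7e: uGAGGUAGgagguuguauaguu
let-7a-1: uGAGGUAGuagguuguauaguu
let-7b: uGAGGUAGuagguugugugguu
let-7c: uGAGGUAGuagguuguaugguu
let-7f-2: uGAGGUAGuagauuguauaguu
miR-302c: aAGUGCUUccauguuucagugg
miR-138-1: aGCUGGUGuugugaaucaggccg

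Mature microRNAs of heterozygous cells stayed close to wild type. All ratios are log2 of heterozygous over wild-type RNA, on the scale that the submitters set with added control RNAs. That direction is likely rather than stated, since the series text names wild type as the reference. The values are taken as log10 before conversion. The median ratio of the 93 microRNAs was -0.05, or 96.4% of wild type, and the middle 50% of them lay between -0.23 and 0.11, or 85.3% and 108% of wild type. Of the 93, 54 had a mean below 0 and 39 above 0. All but 1 lay within 2-fold of wild type, and 83 lay within 1.5-fold, with 6 lower and 4 higher than that. The exception was miR-341.

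The 3 arrays differed in where their ratios were centred. The medians were -0.18 on array 1, -0.07 on array 2 and 0.09 on array 3. Accordingly 55 of 81 microRNAs lay below 0 on array 1, 48 of 91 on array 2 and 29 of 81 on array 3. Arrays 1 and 2, which have opposite dyes, were most alike (r = 0.47 across 79 microRNAs), followed by arrays 1 and 3 (r = 0.33, n = 69), while arrays 2 and 3 showed no relation (r = -0.05, n = 79). These are correlations across microRNAs, which share 1 wild-type reference and are not independent replicates. The same microRNA differed between arrays by an SD of 0.28 in the median. MiR-23a, chosen after its values were seen, had the widest spread, with -0.13, 1.51 and -1.33 on arrays 1, 2 and 3, and without it the correlation of arrays 2 and 3 was 0.13.

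MiR-341 was the only microRNA that passed the test in heterozygous cells. In limma's test of the 3 arrays against 0, with Benjamini-Hochberg adjustment over the 93 microRNAs and a threshold of 0.05, 1 microRNA was lower (1.08% of those tested) and none was higher (0%), while 11 had an unadjusted p under 0.05 and were lower (11.8%) and 5 were higher (5.38%). MiR-341, a microRNA of the Dlk1-Gtl2 region, had ratios of -1.02, -0.98 and -1.59 on arrays 1, 2 and 3. All 3 values were at or near the level of 50% of wild type or under it. The mean was -1.20 ± 0.34 (SD, n = 3 arrays), or 43.7% of wild type with a 95% interval of 33.1% to 57.6% (limma, adjusted p = 0.000583). The call was lost without array 2 (-1.30, adjusted p = 0.149, limma) or without array 3 (adjusted p = 0.122). Centring each array on the median of all its mouse probes with a value, not only the 93, lost the call too (-1.17, adjusted p = 0.202, limma). It was also lost with a dye term, with arrays 1 and 2 averaged as if of 1 preparation, and with a spread shared with the other groups, where adjusted p lay between 0.267 and 0.998. The wild-type RNA enters only as the reference, so its own spread is not in the test. Separate cultures are not stated, so each p-value rests on differences between arrays that may be technical alone.

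The other microRNAs with unadjusted p under 0.05 did not pass the adjustment, and their values are given as measured. MiR-381, also of the Dlk1-Gtl2 region, had -1.13, -0.15 and -1.09, with the dye-swapped array near wild type and the other 2 near 50% of it (mean -0.79 ± 0.55, adjusted p = 0.0587 by limma, n = 3). MiR-200a, which restrains the repressors of epithelial genes, had -1.28 and -0.30 on arrays 1 and 2. MiR-125b-1, a relative of the worm timing microRNA lin-4, had -0.82 and -0.71 on these arrays. Both of its values lay close together, as did those of miR-29b, a regulator of collagen messages, at -0.57 and -0.76. MiR-324-3p had -0.23 and -1.12. None of these 4 had a value on array 3, whose median was the highest. In feeder fibroblasts over wild-type ES cells, miR-125b-1 had 5.48 and 2.52 (mean 4.004) and miR-29b had 5.07 and 3.16 (mean 4.12). The other 2 of these 4 had a value on 1 feeder array, miR-324-3p at 0.12 and miR-200a at -7.535. The rest of the lower ones were miR-134, miR-299, miR-300, miR-329 and miR-409, all of the Dlk1-Gtl2 region, with means between -0.51 and -0.43.

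On the other side stood miR-140, miR-302c, miR-150, let-7e and miR-138-1. MiR-140, best known from cartilage, had 0.60 and 0.82 on arrays 1 and 2 (mean 0.71 ± 0.15, n = 2). MiR-302c, of a pluripotency cluster whose seed overlaps that of the mir-290 family, had 0.19 and 1.17 on arrays 2 and 3. MiR-150, abundant in lymphocytes, had 0.51 and 0.76 on arrays 2 and 3. Let-7e had 0.46, 0.38 and 1.06 on arrays 1, 2 and 3, and miR-138-1, known from neurons, had 0.32, 0.31 and 0.89. Both were above 0 on every array, and array 3 gave the highest value for each. The adjusted p of these 5 lay between 0.0951 and 0.121 (limma).

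**Figure D1:**
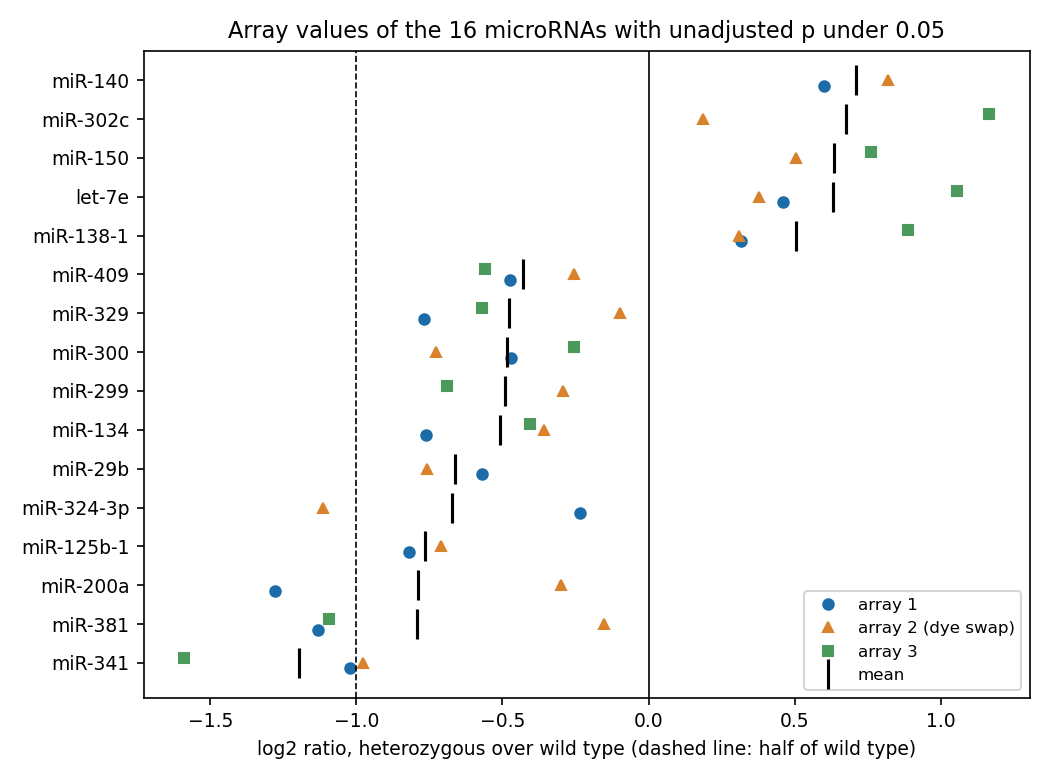
Log2 ratios, heterozygous over wild type, of the 16 microRNAs with unadjusted p under 0.05, 1 marker for each array and a black tick for the mean. MiR-341 lies at or under -0.98 on all 3 arrays, and the dye-swapped array puts miR-381 at -0.15, where the other arrays are at -1.13 and -1.09.

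If levels followed the number of gene copies in proportion, a ratio of -1, or 50% of wild type, would be seen. Tested against that level in the same way, 87 of the 93 microRNAs were higher than 50% of wild type (93.5%, limma, adjusted p under the threshold of 0.05). The 95% interval of the same 87 lay wholly above -1. Its half-width was 0.39 in the median for microRNAs with 3 values and 0.48 for those with 2, so changes smaller than this could go unseen. Larger ones could too, since the calls used adjusted p. MiR-381 at -0.79 and miR-140 at 0.71 were not called against 0. For 83 microRNAs the interval lay wholly within 2-fold of wild type in both directions. The 6 not told apart from 50% were the 6 lowest, miR-341, miR-381, miR-200a, miR-125b-1, miR-324-3p and miR-29b, with adjusted p between 0.163 and 0.416. With a spread taken from all 9 arrays of the series, 45 of 87 microRNAs passed.

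**Figure D2:**
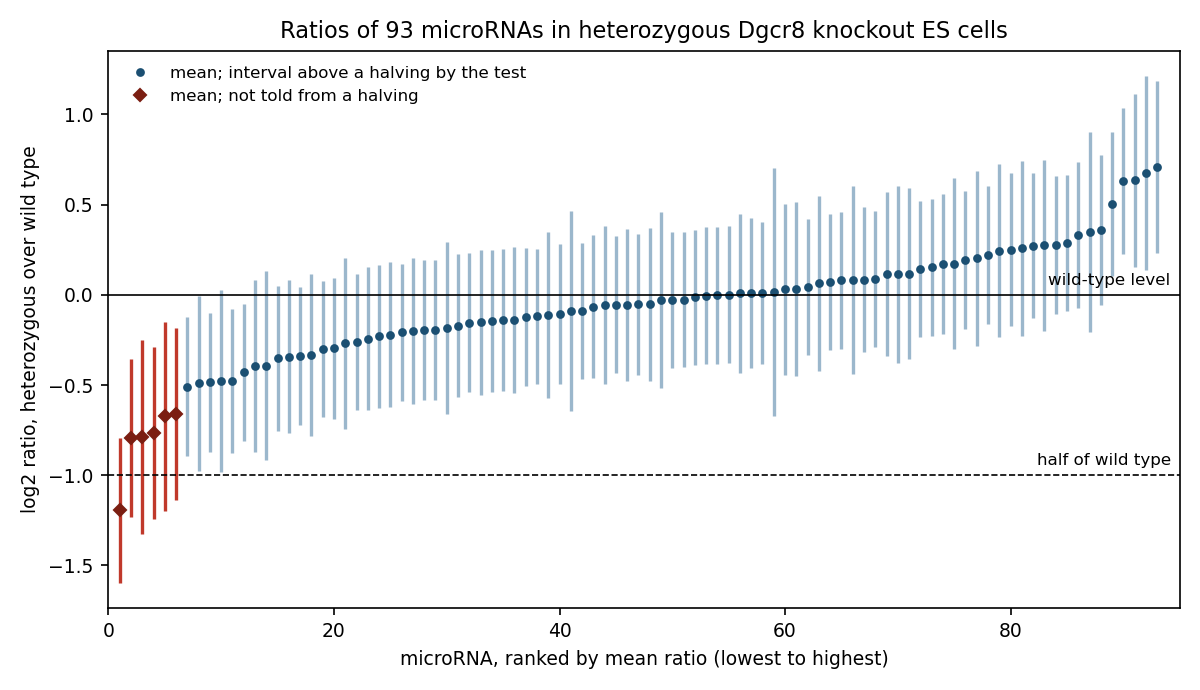
Mean log2 ratio of each of the 93 microRNAs, heterozygous over wild type, ranked from lowest to highest, with its 95% interval from limma as a vertical line. Red diamonds mark the 6 microRNAs not told apart from the dashed line at -1, and only miR-341 has a mean below that line.

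Most members of the mir-290 cluster moved together from array to array, with miR-294 apart on array 3. All 8 lay below 0 on array 1, between -0.50 and -0.20, and all 8 lay below 0 on array 2, between -0.42 and -0.27. On array 3, 7 of the 8 lay above 0, 6 of these no higher than 0.18, and miR-294 alone reached 0.85. The means were between -0.30 for miR-290 (81.5% of wild type) and 0.11 for miR-294, with a median of -0.20 (86.9%), which was -0.34 without array 3. None passed the test against 0 (adjusted p from 0.447 to 0.876, limma). All 8 were higher than 50% of wild type in the test, as were 87 of all 93 microRNAs (93.5%). Against the median of all microRNAs on the same array, the cluster's median was lower by 0.13 on array 1 and by 0.33 on array 2, and on array 3 it was higher by 0.01.

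The arms of 1 hairpin come from the same cut by the Microprocessor, and 3 hairpins had both arms among the 93. MiR-292-3p and miR-292-5p had means that differed by less than 0.01, and on single arrays by 0.07 at most. MiR-291-3p exceeded miR-291-5p by 0.10, with differences of 0.25, 0.02 and 0.04 on arrays 1, 2 and 3. MiR-17-3p and miR-17-5p had equal means within 0.04, but their difference was -0.37 on array 1 and 0.34 on array 2. The 3 differences in mean are smaller than 0.39, the median half-width of the interval of a mean over 3 arrays. That interval is for 1 microRNA against wild type, so agreement of the arms was not tested.

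The mir-17 family clusters, 3 related groups of microRNAs that promote proliferation, lay at wild-type level. The 10 members had means between -0.15 for miR-25 and 0.17 for miR-93, with a median of 0.04, and 7 lay above 0. All 10 were higher than 50% of wild type in the test, as were 87 of all 93 microRNAs (93.5%). MiR-17-5p, miR-20, miR-93, miR-106a and miR-106b, which share the seed AAAGUGC, lay between -0.05 and 0.17. Without array 2 the median of the clusters was -0.004.

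The Dlk1-Gtl2 region holds microRNAs transcribed from the maternal chromosome, and 17 of the 21 on the array entered the comparison. Of the 17, 15 had a mean below 0 (88.2%), against 39 of the 76 other microRNAs (51.3%). The median was -0.34, or 79.1% of wild type, and that of all 93 was -0.05. On array 1, 12 of 14 lay below 0, against 43 of 67 other microRNAs. On array 2, 17 of 17 did, against 31 of 74, and on array 3, 10 of 16, against 19 of 65. Array 3, whose median over all microRNAs was the highest, thus gave the most members above 0, 6 in number. Minus the median of all microRNAs on the same array, the region's median was -0.30, -0.28 and -0.39 on arrays 1, 2 and 3. In 10 of the 17 every value was below 0 and in none above, where 21.5% of the 93 had only values below 0 and 21.5% only values above. MiR-341 alone of the 17 passed the test, and it was the only one of all 93 to pass (1.08%). Lower with an unadjusted p under 0.05 were 7 of the 17, 4 of the 76 other microRNAs and 11 of all 93 (11.8%). At that p 5 of the 76 were higher and none of the 17. Low ratios of this cluster were known from earlier results of these arrays, so its counts are a description.

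In genomic order the low ratios were not at 1 end of the region. MiR-341 (-1.20) stood between miR-127 (-0.17 ± 0.33) and miR-370 (-0.26 ± 0.12). A run from miR-376a to miR-134 had means of -0.48, -0.49, -0.79, -0.34 and -0.51, while miR-376b, next to miR-376a, had 0.25 ± 0.49 and was the highest of the region. MiR-376a itself was scattered, with -1.09, -0.83 and 0.48 on arrays 1, 2 and 3. MiR-134 had -0.76, -0.36 and -0.41, and miR-409 had -0.47, -0.26 and -0.56, so both lay below 0 on every array.

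**Figure D3:**
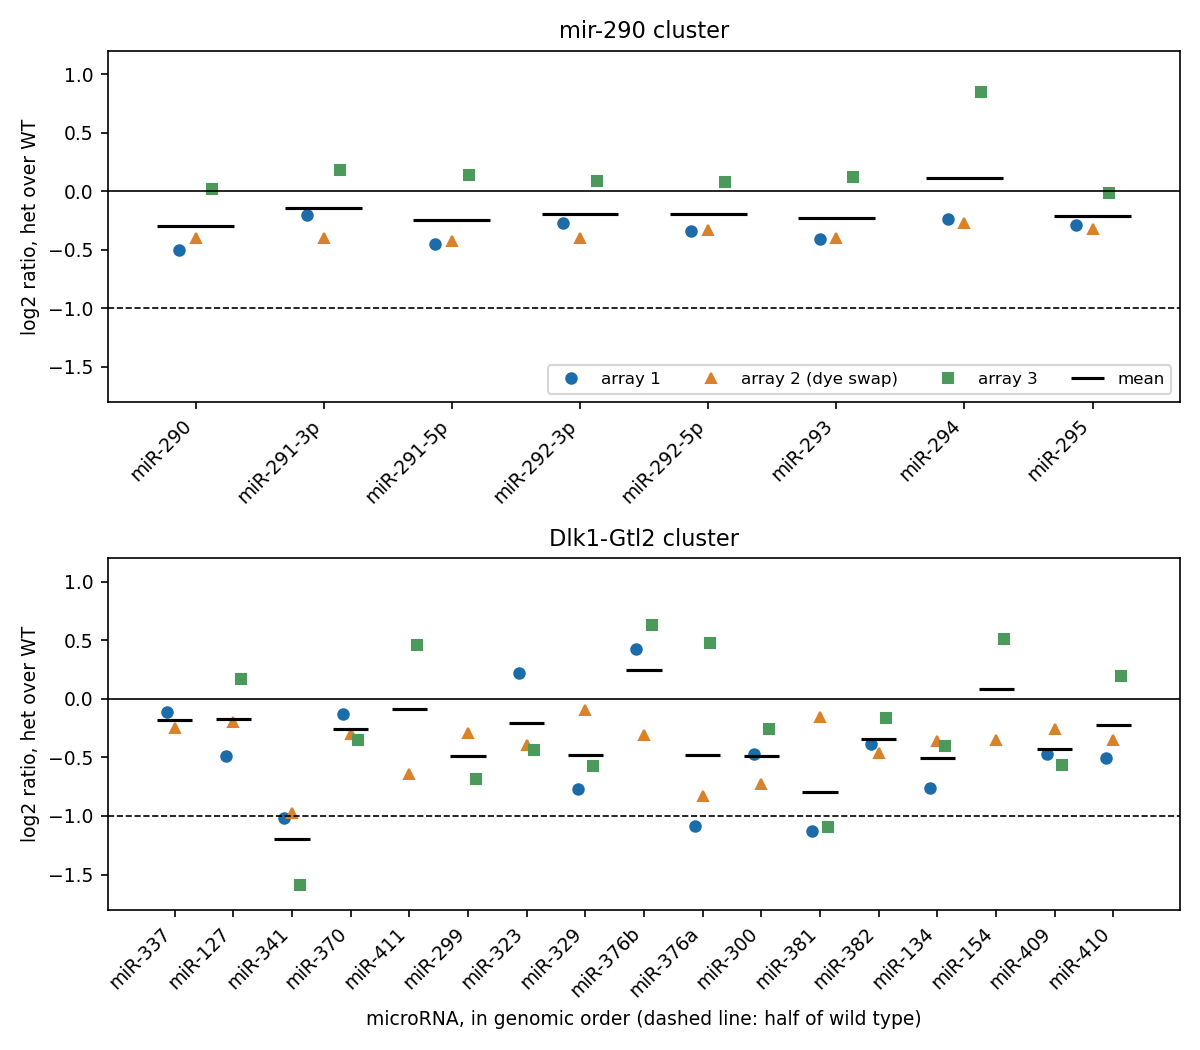
Log2 ratios, heterozygous over wild type, of the mir-290 cluster (8 microRNAs) and the Dlk1-Gtl2 cluster (17) in genomic order, 1 marker for each array and a black bar for the mean. Array 3 sits above arrays 1 and 2 along the whole mir-290 cluster, and all Dlk1-Gtl2 members are below 0 on array 2.

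The let-7 family accumulates as stem cells differentiate and shares the seed GAGGUAG. The 5 members with values on at least 2 arrays had means above 0, as did 39 of all 93 microRNAs. Let-7f-2 was at 0.03, let-7a-1 at 0.12, let-7c at 0.20, let-7b at 0.26 and let-7e at 0.63. None of the 5 passed the test. Let-7a-1 and let-7e are equal at 21 of 22 positions, so probes of the family may share signal, which was not tested. Another 4 had a value on array 2 alone, let-7g at -0.03, let-7f-1 at 0.06, let-7d at 0.13 and let-7i at 0.21. Let-7e, the only one of them with values on all 3 arrays, was also the highest on arrays 1, 2 and 3. Without array 2 the median of 0.20 becomes 0.76, the value of let-7e alone. In feeder fibroblasts the family had a median ratio of 5.23 over wild-type ES cells. The part of feeder RNA in the values above was not tested.

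MicroRNAs of fibroblasts, listed as markers of feeder cells, had 9 of 20 probes among the 93 and a median of -0.05 in heterozygous cells, where their median in feeders was 3.01. Of the 9, 5 had means below 0 and 4 above, from -0.66 for miR-29b to 0.33 for miR-27a, and their array medians were -0.18, 0.03 and 0.29. None passed the test. Array 3 was the highest and array 1 the lowest for this list, as for all microRNAs. The 6 epithelial microRNAs had a median of -0.35 with 5 below 0, and medians of -0.74, -0.09 and -0.11 on arrays 1, 2 and 3. Only 4 of the 6 had a value on array 3, which miR-200a and miR-200b lacked. The median of -0.15 without array 1 is that of these 4. MiR-182 had -0.66, 0.04 and -0.43, and miR-96, from the same cluster, had 0.03, 0.07 and 0.03. The 4 neural microRNAs ranged from -0.27 for miR-128a to 0.50 for miR-138-1. No microRNA of the muscle list or of the liver and pancreas list entered the comparison. The 18 microRNAs of broadly expressed families had a median of -0.02, with miR-125b-1 lowest and miR-15b highest (0.83, 0.32 and -0.08, mean 0.36).

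The 72 RefSeq sequences used placed 32 of the 93 microRNAs in 11 groups with the same bases 2 to 8, whose target sets overlap. MicroRNAs without a sequence used could not be grouped. The gap between the highest and the lowest mean of a group ranged from 0.03 to 1.11. It was 0.03 for miR-103-1 and miR-107, and 0.09 both for miR-130a, miR-130b and miR-301 and for miR-99a and miR-99b. Wider gaps were those of the let-7 family (0.60), of miR-15a, miR-15b, miR-16-1 and miR-195 (0.48) and of miR-141 and miR-200a (0.45). MiR-103-1 and miR-107 are equal at 22 of 23 positions, so their probes may share signal. MiR-125a and miR-125b-1 were furthest apart, at 0.35 and -0.77, though the 2 values of miR-125a were 0.91 and -0.21 on arrays 2 and 3.

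With both Dgcr8 copies disrupted, most of the same microRNAs were far lower than with 1. Heterozygous and homozygous ratios share the wild-type reference, which cancels in their difference. Of 90 microRNAs with a value in both homozygous lines, 82 (91.1%) were higher in heterozygous than in homozygous cells, 2 (2.22%) were lower and 6 did not pass (limma, each line as 1 replicate). The median difference was 5.86. The mir-290 cluster had a median of -0.20 in heterozygous cells and -7.52 in homozygous cells. MiR-341 had a mean of -1.20 in heterozygous cells and -2.83 in homozygous cells, a difference of 1.64 (limma, adjusted p = 0.00775). The medians of the Dlk1-Gtl2 cluster, which holds miR-341, were -0.34 in heterozygous and -6.19 in homozygous cells. In homozygous line 1 the 2 arrays of miR-341 stood apart, at -3.37 and -1.25, and in line 2 they were at -3.61 and -3.11. MiR-381 had -0.79 in heterozygous and -6.19 in homozygous cells.

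The 5 microRNAs with high heterozygous ratios and unadjusted p under 0.05 differed in what was left without Dgcr8. MiR-140 had a mean of 0.71 in heterozygous and -1.06 in homozygous cells. Let-7e had 0.63 in heterozygous and -0.79 in homozygous cells, and miR-138-1 had 0.50 in heterozygous and -0.52 in homozygous cells. The 2 homozygous lines differed for miR-140 (-1.51 and -0.61, 1 array each) and for let-7e (-0.41 and -1.16). MiR-150 had 0.63 in heterozygous and -5.78 in homozygous cells, and miR-302c had 0.68 in heterozygous and -3.74 in homozygous cells. MiR-320, whose hairpin is made without DGCR8, had -0.01, 0.34 and 0.25 on arrays 1, 2 and 3 in heterozygous cells (mean 0.19 ± 0.18, adjusted p = 0.623 by limma, n = 3) and a mean of 1.46 in homozygous cells. It was one of the 2 lower in heterozygous cells, by -1.26 (adjusted p = 0.00323), and miR-126* was the other. The 6 that did not pass between the genotypes were let-7a-1, let-7b, let-7f-2, miR-99a, miR-99b and miR-125b-1. For miR-125b-1 the 2 homozygous lines stood far apart, at 0.26 in line 1 (1 array) and -4.62 in line 2. The others had homozygous means between -0.28 and 0.48. The counts of 82 higher and 2 lower rest on the control RNA scale. Centring each array on its median takes out a loss common to most microRNAs, here a homozygous median of -6.01. After centring, 28 were higher in heterozygous cells and 23 lower, relative to the other microRNAs of the array. Centring therefore cannot check the counts on the control RNA scale.

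**Figure D4:**
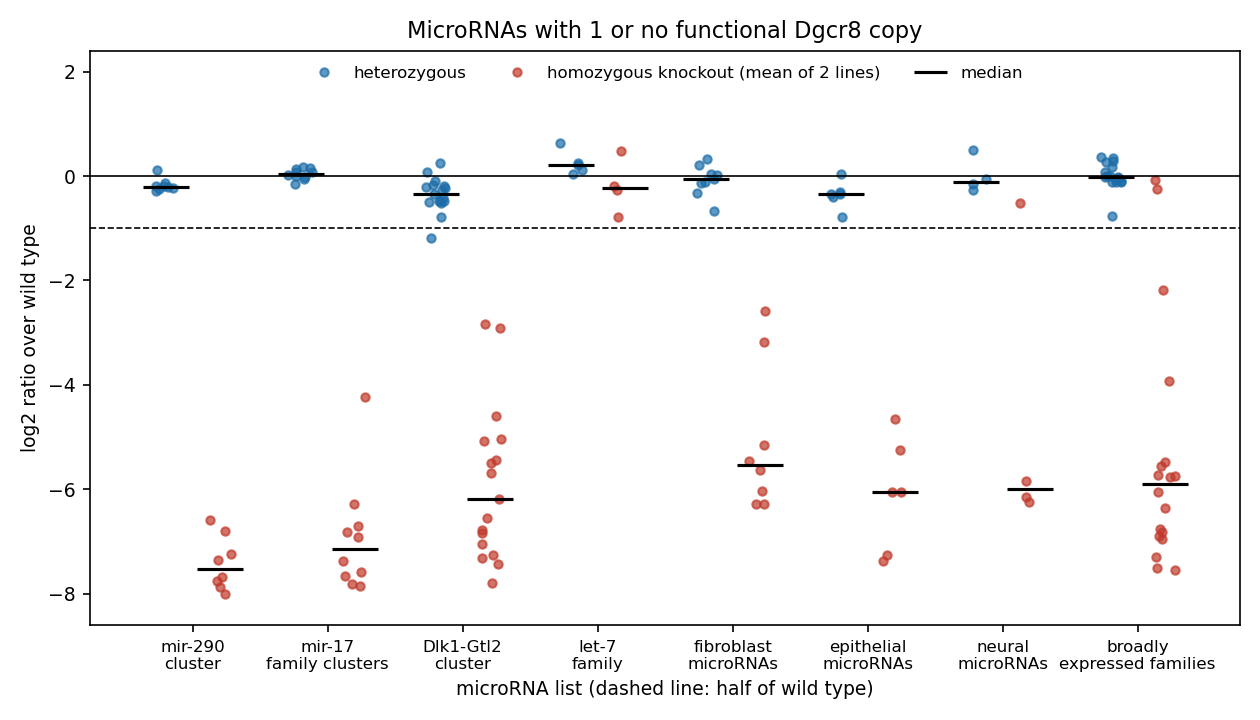
Mean log2 ratio over wild type of each microRNA in 8 lists, heterozygous cells (blue, left) beside homozygous knockout cells (red, right, mean of 2 lines), with black bars for medians and a dashed line at -1. Heterozygous means lie between -1.20 and 0.63, while the mir-290 cluster has medians of -0.20 in heterozygous and -7.52 in homozygous cells.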

How the data were processed

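The authors deposited 1 table of log10 ratios from 9 two-colour arrays, normalised on positive control RNAs per the series text. Gel-purified small RNA was labelled with the NCode system, per the labels' protocols. The columns of replicate 1 of knockout line 1 and of feeder replicate 1 are listed as other units, but were read as log10 ratios like the other columns. In the deposited values 3 spreadsheet error cells were treated as missing. The log base was read from replicate 2 of knockout line 1, where each of 90 low values equals log10 of a number with 4 decimals. On the other knockout arrays the same held for 1 of 76, 2 of 68 and 4 of 75 low values, so they do not show the base. For them and for the heterozygous arrays, which have hardly any low values, log10 is assumed. Were the values log2, each ratio would be smaller by the factor of 3.3219. The direction is likely, from the series text. Within knockout lines and feeders, arrays of opposite dye had r from 0.912 to 0.962. Among heterozygous arrays 1 of 2 such pairs showed no relation, so the direction of array 2 could not be checked there. The sources used here do not give the image processing, the background correction or the intensities. Precision is therefore judged from the few arrays alone, and how far spots stood above background is not known.

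Conversion to log2 used a factor of 3.3219, without a pseudocount or any rescaling. Probes were matched by name to RefSeq microRNAs (GRCm38.p6), and 11 names with no mouse gene were left out. Ratios of the 3 heterozygous arrays were tested against 0 and against -1 with limma 3.58.1 in R 4.3.3 (lmFit, eBayes), with Benjamini-Hochberg adjustment over all 93 members. The scripts were tested on simulated data. Named are the microRNAs called, the 8 lowest and 8 highest with 3 values, those with unadjusted p under 0.05, the mir-290, mir-302, let-7 and DGCR8-independent lists, both arms of a hairpin, and the extremes of other lists; others named for a comparison were chosen after their values were seen. Members, lists and tests were chosen with earlier results of these data known. Alternatives covered single arrays left out, centring, missing values, shared spread, dye, shared preparations, robust variances and log base. Centring used the median of all mouse probes with a value on the array, while array medians given in the Results are those of the 93.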

Additional observations from a re-analysis of the deposited data

How the results depend on the processing

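The count of 1 microRNA called lower ranged between 0 and 1 when single arrays were left out. It was 0 with each array centred on its median, with a spread shared over 6 values or 9 arrays, with a dye term, with arrays 1 and 2 averaged and with the sign of the dye-swapped array turned. With arrays 2 and 3 averaged as 1 preparation, 9 were lower and 2 higher. In that fit limma used 1 common variance for all microRNAs. Among those called, miR-125b-1, miR-29b, miR-200a, miR-324-3p and miR-140 have no array 3 value, so averaging left their values as they were. The number above 50% of wild type was 45 with the spread of all 9 arrays, and 58 to 74 with single arrays left out, where 69 to 79 microRNAs could be tested. Read as log2, all 93 would lie above it. Without single arrays the medians of the mir-17 family clusters ranged from -0.004 to 0.064, of the let-7 family from 0.225 to 0.759, of the neural list from -0.104 to 0.008, of the fibroblast list from -0.042 to 0.093, of the broadly expressed families from -0.048 to 0.051, of the epithelial list from -0.359 to -0.151, of the mir-290 cluster from -0.336 to -0.137, of the Dlk1-Gtl2 cluster from -0.427 to -0.305 and of all microRNAs from -0.125 to 0.006. Each of these medians covers only the members with values on both of the arrays kept. With values on all 3 arrays the let-7 median was 0.632, that of let-7e alone. With centring, 28 microRNAs were higher and 23 lower in heterozygous than in homozygous cells, relative to the array median. Centring takes out any loss common to most microRNAs, so these 2 counts cannot check those on the control RNA scale. With the replicate number as a block (replicate block, arrays as single values), 72 of 79 were higher and 1 lower. Same-numbered arrays share a dye orientation, so the block is also one for dye, but the labels name no shared batch or day. Deviations of same-numbered arrays correlated with r from 0.043 to 0.236. Direction turned with single arrays left out for miR-17-3p (-0.06 to 0.01, above 0 without array 1), miR-25 (-0.26 to 0.06, above 0 without array 3), miR-294 (-0.25 to 0.31, below 0 without array 3) and miR-17-5p (-0.12 to 0.17, below 0 without array 1 and, at -0.01, without array 3). For miR-17-5p it also turned with a dye term (-0.07) and with arrays 1 and 3 averaged (-0.07). None of these passed the test in any setting, and the cause was not tested. Of 501 values of 43 named microRNAs under alternatives, 477 kept their direction and their side of the threshold.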

Other observations

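A further 33 mouse probes had a value on 1 heterozygous array, 28 of them on array 2, and enter no comparison. The 28 had a median ratio of 0.31, and 22 were above 0. MicroRNAs of fibroblasts among them lay between -0.03 for miR-199a-1 and 1.07 for miR-152. Single values reached further from wild type than any mean of the 93 microRNAs: miR-224 was at 3.94 on array 1, miR-205 at 2.63 on array 2 and miR-302a at 2.45 on array 3, while miR-328 was at -3.66 on array 1 and miR-206 at -4.97 on array 2. Each of these rests on 1 array, with no replicate. Of the probes with no mouse gene of that name, miR-371 had -1.03, -0.52 and 0.42 on arrays 1, 2 and 3, and miR-422a had 0.53 and 0.59 on arrays 1 and 2.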
